A study of Mus musculus with 4 samples.

Results

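The lysyl oxidases and lysyl hydroxylases are the enzymes that prepare and make the cross-links of collagen and elastin. They were followed here in periodontal ligament (PDL), which anchors the root of a tooth in bone. The set holds 8 genes, Lox, Loxl1, Loxl2, Loxl3, Loxl4, Plod1, Plod2 and Plod3, of 22911 genes named on the array. Probes were assigned to these genes by RefSeq accession, which gave 13 probes, and the brightest probe of each gene over the arrays represents it. RNA came from Mkx-KO mice, labelled as knocked out for Mkx (Mohawk, a homeobox factor of tendon and ligament), and from WT mice. It was taken at 10 and at 4 weeks of age, which made 4 groups: Mkx-KO at 10 weeks, WT at 10 weeks, Mkx-KO at 4 weeks and WT at 4 weeks. Each group had 1 one-colour Agilent array, and all 4 arrays lay on 1 slide. The labels give neither the allele, the strain, the sex nor the number of mice, so nothing here measures variation between mice. No p-value exists for a single pair of arrays, and the number of arrays limits the precision.

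Lysyl hydroxylases act inside the cell, where they hydroxylate lysine residues of newly made collagen chains with iron, 2-oxoglutarate and ascorbate. Lysyl oxidases are copper-dependent amine oxidases of the extracellular space. They turn lysine and hydroxylysine side chains into aldehydes, which then join neighbouring molecules. Hydroxylation of the lysines at the ends of the collagen molecule decides the kind of cross-link that forms, and the periodontal ligament carries these links under the load of chewing.

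The promoter table from RefSeq (build GRCm38.p6) held 3 of the 8 genes, and their sequences are shown because all of them stood lower at 10 than at 4 weeks in both genotypes. Each runs from 250 bases before to 50 bases after the gene start. Capitals mark the core of the hypoxia response element (ACGTG or GCGTG) and the GC box (GGGCGG), each on either strand, and these motifs shared 0 bases.
Loxl4: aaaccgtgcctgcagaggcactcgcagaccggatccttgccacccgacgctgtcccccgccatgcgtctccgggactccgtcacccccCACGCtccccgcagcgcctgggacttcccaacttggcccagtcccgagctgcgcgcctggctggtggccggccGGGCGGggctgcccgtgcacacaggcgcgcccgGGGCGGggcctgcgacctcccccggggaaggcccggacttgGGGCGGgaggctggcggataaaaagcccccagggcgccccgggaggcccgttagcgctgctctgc
Plod1: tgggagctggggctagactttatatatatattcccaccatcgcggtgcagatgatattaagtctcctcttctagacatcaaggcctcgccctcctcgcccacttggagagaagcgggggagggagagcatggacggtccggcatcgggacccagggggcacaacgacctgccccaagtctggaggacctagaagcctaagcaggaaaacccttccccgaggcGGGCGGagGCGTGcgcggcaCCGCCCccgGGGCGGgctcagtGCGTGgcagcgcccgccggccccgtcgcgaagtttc
Plod3: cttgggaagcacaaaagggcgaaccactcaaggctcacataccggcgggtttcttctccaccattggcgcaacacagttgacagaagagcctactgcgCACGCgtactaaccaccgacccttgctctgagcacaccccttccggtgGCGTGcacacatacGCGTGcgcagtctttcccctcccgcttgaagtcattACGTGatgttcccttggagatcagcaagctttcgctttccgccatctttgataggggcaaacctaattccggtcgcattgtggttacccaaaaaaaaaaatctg
The Loxl4 promoter lies at chr19:42612757-42613056 on the minus strand, that of Plod1 at chr4:147936727-147937026 on the minus strand and that of Plod3 at chr5:136986769-136987068 on the plus strand. The hypoxia core matched at 1 place in Loxl4, 2 in Plod1 and 4 in Plod3, and 43.8% of the 32851 promoters in the table hold it. The GC box matched 3 times in Loxl4, 3 times in Plod1 and 0 times in Plod3, against 35.7% of all promoters with at least 1 match. The Iroquois-type homeodomain site ACANNTGT, on both strands, had 0 matches in the 3 sequences and was present in 7.38% of all promoters. A match describes the letters only.

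Levels are log2 processed signals minus the 75th percentile of the array's probes, and differences are differences of these levels. The technical error of a difference combines the scanner software's error estimates of both spots and had a median of 0.20 log2 units over all genes. Probes differ in how well they bind, so levels are compared between arrays and not between genes. The 8 representative probes were called well above background by the scanner software on all 4 arrays. The median of the spots surrounding theirs lay between -0.12 and 0.15 log2 units of each spot's own median over the arrays. For each of the 8 it was below 0 on both 10-week arrays and above 0 on both 4-week arrays. Around Plod2 it was -0.11 in Mkx-KO and -0.12 in WT at 10 weeks, and 0.15 in Mkx-KO and 0.10 in WT at 4 weeks. The surroundings thus differed with age in the direction of most age differences below, and their part in these was not tested.

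The ligament gene Postn, which encodes periostin, stood at 8.50 in Mkx-KO and 8.45 in WT at 10 weeks, and at 8.62 in Mkx-KO and 8.57 in WT at 4 weeks. All 6 genes of the ligament fibroblast list were well above background on every array. Mkx itself stood at -1.26 in Mkx-KO against 0.84 in WT at 10 weeks, and at -0.57 in Mkx-KO against 1.08 in WT at 4 weeks. Where its probe lies relative to the deleted part was not examined here. Other tissues were present in unequal amounts, given here as summed linear levels of 5 markers each, in multiples of the array's 75th percentile. Skeletal muscle markers summed to 77.7 in Mkx-KO and 58.3 in WT at 10 weeks, and to 18.3 in Mkx-KO and 53.5 in WT at 4 weeks. Neutrophil markers summed to 1124 in Mkx-KO and 829 in WT at 10 weeks, and to 333 in Mkx-KO and 659 in WT at 4 weeks. Olfactory neuron markers summed to 40.7 in Mkx-KO and 49.3 in WT at 10 weeks, and to 0.997 in Mkx-KO, with 4 of 5 still well above background, and 41.5 in WT at 4 weeks. These 3 lists were thus lowest on the Mkx-KO array of 4 weeks. Markers of stratified epithelium summed to 268 in Mkx-KO and 473 in WT at 10 weeks, and to 338 in Mkx-KO and 199 in WT at 4 weeks. In whole tissue, fewer cells of a type and less RNA per cell cannot be told apart, and the part of tissue make-up in the differences below was not tested.

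Lox, which encodes the founding enzyme of the family and acts on fibrillar collagen and elastin, differed most among the 8 genes in each of the 4 comparisons. It stood at 4.29 in Mkx-KO and 3.35 in WT at 10 weeks, and at 5.72 in Mkx-KO and 4.84 in WT at 4 weeks. It was therefore higher in Mkx-KO at both ages and lower at 10 weeks in both genotypes. The Mkx-KO level was 1.93-fold that of WT at 10 weeks (log2 difference 0.95, technical error 0.20) and 1.84-fold at 4 weeks (0.88, technical error 0.20), just short of 2-fold both times. Of the 16457 genes measured at 10 weeks, 1.24% were as high in Mkx-KO or higher, and at 4 weeks the share was 0.77% of 15686. Only 14 of 15504 genes measured at both ages, Lox among them, had both differences at least as high. The 10-week level was 0.372 of the 4-week level in Mkx-KO (log2 difference -1.43) and 0.355 in WT (-1.50). A second, dimmer Lox probe gave differences of 1.05 at 10 weeks and 0.89 at 4 weeks for genotype, and -1.36 in Mkx-KO and -1.52 in WT for age. On this probe the genotype difference at 10 weeks, 2.07-fold, passed 2-fold. Both probes thus placed the 4 arrays in the same order, from Mkx-KO at 4 weeks down to WT at 10 weeks. Lox lies on chromosome 18, as does Mkx, and the labels give neither allele nor strain. DNA inherited along with the knocked-out allele therefore cannot be told apart from the knockout for Lox, and its part was not tested. The medians of B cell markers lay on the same side as Lox in the 4 comparisons. All 5 were well above background on the 4 arrays, and their summed level was 8.87 in Mkx-KO and 3.53 in WT at 10 weeks, and 12.95 in Mkx-KO and 5.99 in WT at 4 weeks. Their median difference was 1.21 at 10 and 1.12 at 4 weeks for genotype, positive in 5 of 5 both times. For age it was -0.43 in Mkx-KO, where Pax5 went the other way (0.06), and -0.59 in WT, where 5 of 5 were negative. Markers of ligament fibroblasts had median genotype differences of 0.15 at 10 weeks, positive in 5 of 6, and 0.06 at 4 weeks, positive in 4 of 6. The part of either cell type in the Lox differences was not tested. Skeletal muscle markers, by contrast, differed between genotypes by a median of 0.52 at 10 weeks and -1.56 at 4 weeks, opposite in sign.

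**Figure D1:**
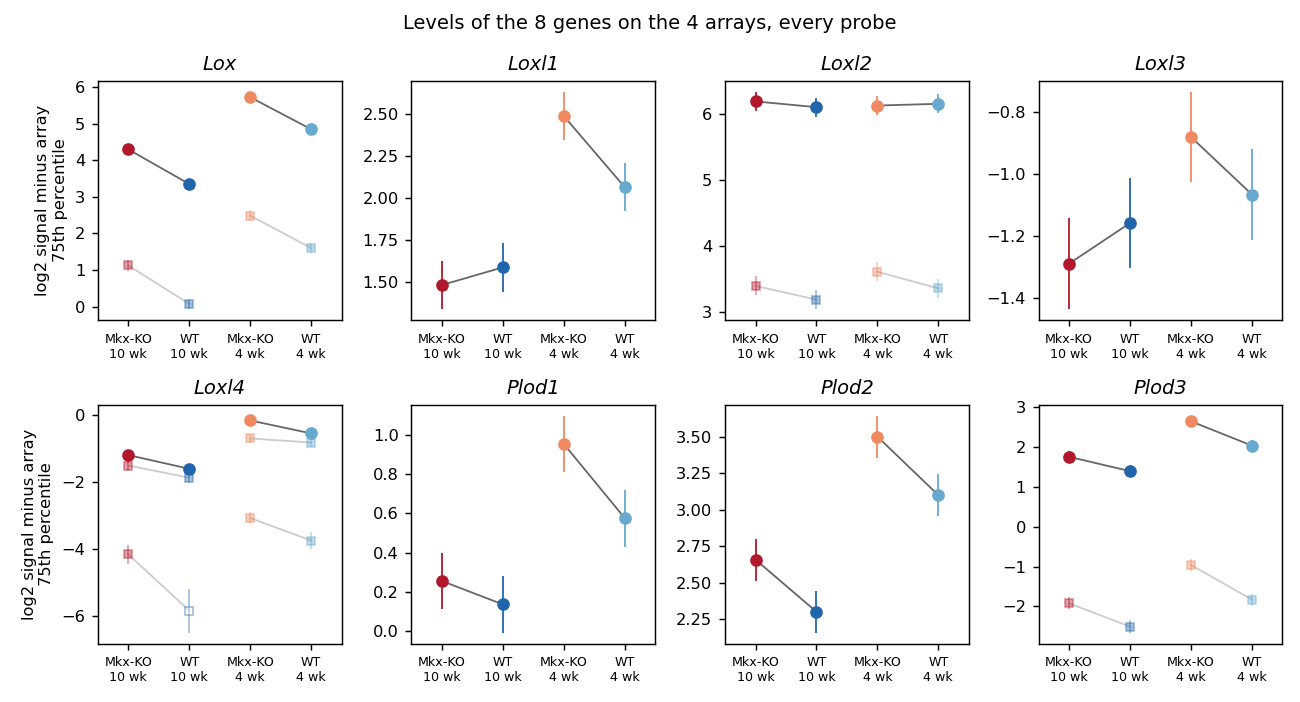
Levels of each gene on the 4 arrays (vertical axis, log2 processed signal minus the 75th percentile of the array, with a scale of its own per panel), with Mkx-KO left of WT at each age. Circles are the representative probe, pale squares the other probes, bars the scanner software's technical error, and the open square a probe not well above background. Lox stands at 4.29 in Mkx-KO and 3.35 in WT at 10 weeks and at 5.72 in Mkx-KO and 4.84 in WT at 4 weeks, while the brightest Loxl2 probe spanned 0.09.

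Loxl1, whose product maintains elastic fibres in mice together with fibulin-5, stood at 1.48 in Mkx-KO and 1.59 in WT at 10 weeks, and at 2.49 in Mkx-KO and 2.07 in WT at 4 weeks. The genotypes thus differed by less than the technical error of 0.20 at 10 weeks (-0.11), and Mkx-KO was above WT at 4 weeks (0.42). The age difference was -1.01 in Mkx-KO and -0.48 in WT, so only the first passed 2-fold, and narrowly.

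Loxl2, whose product also acts on collagen of basement membranes, had the smallest span of the 8 over the arrays. It stood at 6.18 in Mkx-KO and 6.10 in WT at 10 weeks, and at 6.12 in Mkx-KO and 6.15 in WT at 4 weeks. None of the 4 differences of its brightest probe, which ran from -0.05 to 0.09, exceeded the technical error. A second, dimmer probe gave 0.21 and 0.25 for genotype, and -0.21 in Mkx-KO and -0.17 in WT for age, against a technical error of 0.20.

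Loxl3, needed for palate and spine development in mice, stood at -1.29 in Mkx-KO and -1.16 in WT at 10 weeks, and at -0.88 in Mkx-KO and -1.07 in WT at 4 weeks. Its genotype differences of -0.13 and 0.19 were within the technical error of 0.21. The age difference was -0.41 in Mkx-KO and -0.09 in WT.

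Loxl4 encodes a lysyl oxidase with scavenger receptor domains. It stood at -1.20 in Mkx-KO and -1.61 in WT at 10 weeks, and at -0.16 in Mkx-KO and -0.55 in WT at 4 weeks. Like Lox, it was higher in Mkx-KO at both ages, by 0.41 and 0.39, and lower at 10 weeks in both genotypes, by log2 differences of -1.03 in Mkx-KO and -1.06 in WT. A second probe gave 0.36 and 0.12 for genotype, and -0.81 in Mkx-KO and -1.05 in WT for age. The third and dimmest probe gave 0.67 for genotype at 4 weeks and -1.08 in Mkx-KO for age, and was not well above background in WT at 10 weeks. The 3 probes of Loxl4 thus ran from 0.12 to 0.67 for genotype at 4 weeks.

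The lysyl hydroxylases shared 1 pattern, with Mkx-KO above WT and 10 weeks below 4 weeks in all 12 differences of the 3 genes. These 12 are not independent, as the 4 differences of a gene come from the same 4 arrays. Of all genes, 51.46% were higher in Mkx-KO at 10 weeks and 58.84% at 4 weeks. The share higher at 10 than at 4 weeks was 37.65% in Mkx-KO and 40.48% in WT. Plod1, the enzyme of lysines in the helix of collagen, stood at 0.26 in Mkx-KO and 0.14 in WT at 10 weeks, and at 0.95 in Mkx-KO and 0.58 in WT at 4 weeks. Its genotype difference was 0.12 at 10 weeks, within the technical error, and 0.38 at 4 weeks, and its age difference was -0.70 in Mkx-KO and -0.44 in WT. Plod2, the enzyme of lysines in the end regions of collagen, stood at 2.66 in Mkx-KO and 2.30 in WT at 10 weeks, and at 3.50 in Mkx-KO and 3.10 in WT at 4 weeks. Its differences were 0.36 and 0.40 for genotype, and -0.84 in Mkx-KO and -0.80 in WT for age, almost the same size on each side. Plod3, which also adds sugars to hydroxylysine, stood at 1.76 in Mkx-KO and 1.40 in WT at 10 weeks, and at 2.65 in Mkx-KO and 2.04 in WT at 4 weeks. Its Mkx-KO level was 1.28-fold that of WT at 10 weeks (0.36) and 1.53-fold at 4 weeks (0.61), and its age difference was -0.89 in Mkx-KO and -0.64 in WT. The dimmer Plod3 probe gave larger genotype differences, 0.59 and 0.87, and age differences of -0.96 in Mkx-KO and -0.68 in WT.

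**Figure D2:**
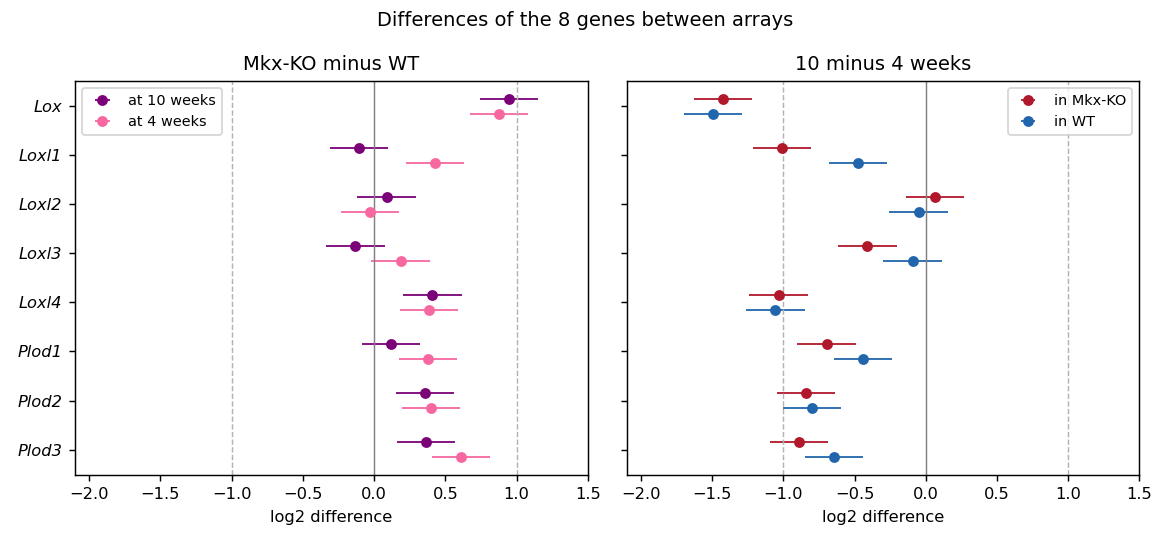
Log2 differences of the 8 genes (horizontal axis), Mkx-KO minus WT at 10 and 4 weeks on the left and 10 minus 4 weeks in Mkx-KO and WT on the right. Bars are technical errors, and dashed lines mark 2-fold. Lox stands at 0.95 and 0.88 on the left and at -1.43 and -1.50 on the right.

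Between the genotypes at 10 weeks, 0 of the 8 genes were at least 2-fold apart on their representative probes, though the second Lox probe was. Of all genes, 2.41% were (1.04% higher and 1.37% lower in Mkx-KO). The median difference of the 8 was 0.24, against 0.01 over all genes, with 6 positive and 2 negative, where 51.46% of all genes were positive. At 4 weeks 0 of 8 were again at least 2-fold apart, where 3.78% of all genes were (0.472% higher and 3.31% lower in Mkx-KO). The median was 0.39, against 0.06 over all genes, with 7 positive and 1 negative, where 58.84% of all genes were positive. At a threshold of 1.5-fold, Lox was higher at 10 weeks (4.53% of all genes were) and Lox and Plod3 were higher at 4 weeks (2.95% of all genes). A difference of 1.5-fold or more at both ages was reached by Lox and by 0.219% of genes measured at both.

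Differences between the ages were larger. In Mkx-KO, 3 of 8 genes, Lox, Loxl1 and Loxl4, were at least 2-fold lower at 10 weeks and 0 higher, where 10.1% of all genes were at least 2-fold apart (3.84% lower and 6.25% higher). The median of the 8 was -0.87, against -0.15 over all genes, with 7 negative and Loxl2 at 0.06, where 37.65% of all genes were positive. In WT, 2 of 8, Lox and Loxl4, were at least 2-fold lower and 0 higher, where 8.84% of all genes were apart (3.83% lower and 5.01% higher). The median was -0.56, against -0.10, and all 8 were negative, where 40.48% of all genes were positive. Lox and Loxl4 passed 2-fold in both genotypes, as did 1.29% of the genes measured in both. At 1.5-fold, 6 of 8 were lower in Mkx-KO (15.5% of all genes) and 4 of 8 in WT (12.8%). The 4-week array of Mkx-KO with its low levels of muscle, neutrophil and olfactory markers enters the first of these comparisons and not the second. Lox, Loxl4 and Plod2 had age differences in Mkx-KO (-1.43, -1.03 and -0.84) close to those in WT (-1.50, -1.06 and -0.80). Those of Loxl1, Loxl3, Plod1 and Plod3 were larger in Mkx-KO (-1.01, -0.41, -0.70 and -0.89) than in WT (-0.48, -0.09, -0.44 and -0.64), with no test of that contrast. Skeletal muscle markers had a median age difference of 2.37 in Mkx-KO and 0.23 in WT, and olfactory markers of 4.98 in Mkx-KO and 0.30 in WT. Markers of ligament fibroblasts had median age differences of -0.51 in Mkx-KO and -0.41 in WT, and those of osteoblasts -0.77 in Mkx-KO and -0.69 in WT. These medians were on the same side as that of the 8 genes. In Mkx-KO, 1 of 6 fibroblast markers (Aspn, 0.42) and 2 of 5 osteoblast markers (Ibsp, 0.45, and Dmp1, 0.29) went the other way, and 0 did in WT. Markers of smooth muscle and pericytes had a median of -1.11 in Mkx-KO, with 3 of 5 at least 2-fold lower, and -0.20 in WT. The other way went 1 of 5 in both genotypes, Myh11, at 0.90 in Mkx-KO and 0.35 in WT. In Mkx-KO, other probes gave differences as small as -0.59 for Acta2 and -0.26 for Cnn1, short of 2-fold. The summed level of the 5 was 22.3 in Mkx-KO and 24.6 in WT at 10 weeks, and 63.4 in Mkx-KO and 28.1 in WT at 4 weeks. All 5 were well above background on every array. Markers of stratified epithelium differed by a median of -0.52 in Mkx-KO and 1.12 in WT. The part of any of these cell types in the age differences was not tested.

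These age differences depend in size on how arrays are scaled. The authors' deposited values use 1 factor per array that places the 10-week arrays higher, so that the median of all genes was 0.14 in Mkx-KO and 0.26 in WT. The share of genes at least 2-fold apart that were higher at 10 weeks was then 85.4% in Mkx-KO and 82.9% in WT, against 62.0% and 56.6% with the 75th percentile. On that scale Lox kept a 2-fold difference, at -1.14 in both genotypes, Loxl1 in Mkx-KO came to -0.72, and Loxl4 came to -0.74 in Mkx-KO and -0.70 in WT. Minus the median of all genes, the median of the 8 genes was -0.71 in Mkx-KO and -0.46 in WT, which a factor per array cannot alter. With quantile normalization it was -0.57 in Mkx-KO and -0.45 in WT. With the deposited values, Loxl3 in WT changed sign to 0.26 and Loxl2 came to 0.35 in Mkx-KO and 0.30 in WT. The genotype differences at both ages share the arrays of the age differences, so the 4 comparisons of a gene are not independent.

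**Figure D3:**
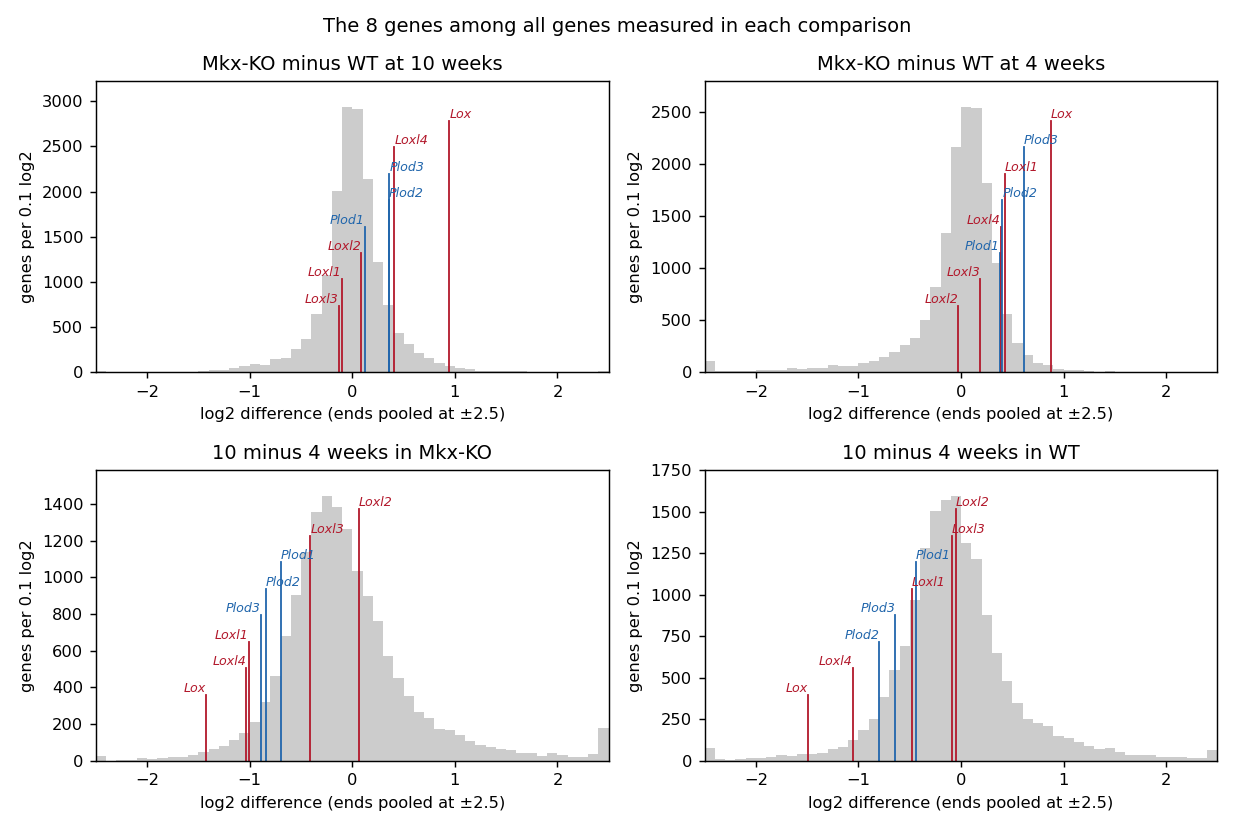
Number of genes per 0.1 log2 unit of difference (grey bars) in each comparison, with the lysyl oxidases in red and the lysyl hydroxylases in blue; the height of a coloured line has no meaning. Lox lies on the upper edge for genotype (0.95 and 0.88) and on the lower edge for age (-1.43 and -1.50), and Loxl2 lies near the middle in all 4.

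A limma model with genotype and age over all 4 arrays, which leaves 1 residual degree of freedom, gave the only standard errors across arrays. The ages served as replicates of genotype and the genotypes as replicates of age, so these errors do not measure the spread of replicate arrays. For genotype, Lox differed by 0.91 (SE 0.13, unadjusted p = 0.00708) and Plod3 by 0.49 (SE 0.15, unadjusted p = 0.0497) in limma. These 2 of 8 had an unadjusted p under 0.05, as did 2.71% of all genes, 455 of 16795. After Benjamini-Hochberg adjustment limma called 0 genes (0.0%) for genotype, and the adjusted p of the 8 genes was 0.9996. For age, the limma difference was -1.46 for Lox (SE 0.13, adjusted p = 0.176), -1.04 for Loxl4 (SE 0.13, adjusted p = 0.176) and -0.82 for Plod2 (SE 0.13, adjusted p = 0.176). Lox, Loxl1, Loxl4, Plod1, Plod2 and Plod3, 6 of 8, had an unadjusted p under 0.05 for age, as did 24.3% of all genes, 4074 of 16795, and limma called 0 genes (0.0%) after adjustment. These unadjusted counts depend on the processing. For age, 3 of 8 (Lox, Loxl4 and Plod2) passed with the deposited values, and Loxl1, Plod1 and Plod3 did not. For genotype the count ran from 1 to 3 over the alternatives, with Lox in each, and Plod3 missed it with the deposited values, with median centring and without a filter. On simulated data the genotype fit recovered 0 of 50 genes changed by 2 log2 units and 34 of 50 changed by 4.

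The likeness of profiles over the 4 arrays was measured as the root mean square distance between levels centred on each gene's mean, and describes 4 points per gene only. Among the 8 genes, Plod2 and Plod3 lay closest, at 0.08 log2 units, and Lox and Loxl2 farthest apart, at 0.86. Of 15503 other genes that passed the background criterion on every array, the nearest to Lox were Mest, an imprinted gene expressed from the paternal copy, at 0.13, C1qtnf3 at 0.14 and Tspan2 at 0.16. Mest stood at 0.91 in Mkx-KO and 0.06 in WT at 10 weeks, and at 2.69 in Mkx-KO and 1.66 in WT at 4 weeks. Nearest to Plod3 was P4ha2, a catalytic subunit of collagen prolyl hydroxylase, at 0.04, then Tppp3 at 0.04 and Itga5 at 0.05. Anxa5, Gm35472 and Ciao2b were nearest to Plod2 at 0.01, 0.02 and 0.02. Insc, Slc22a28 and Pcdh12 were nearest to Loxl4 at 0.02, 0.03 and 0.03, and Gtf2ird1, Ppa1 and Tfpi to Loxl1 at 0.01, 0.02 and 0.02.

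Among the substrates, the main collagen chains had genotype differences smaller than that of Lox, with no test of that contrast. Where a gene has a pair of genotype differences here and below, the first is that at 10 weeks and the second that at 4 weeks. Of 11 fibrillar collagen chains, 0 were 2-fold apart at either age, with medians of 0.15 at 10 and 0.14 at 4 weeks. Col1a1 (0.14 and 0.05), Col1a2 (0.20 and -0.03) and Col3a1 (0.21 and -0.02), the chains that make up most of the ligament's fibrils, were within 0.22 log2 units. The minor chains Col5a1 (0.10 and 0.79) and Col5a3 (0.45 and 0.80), which help to set fibril width, were further apart at 4 weeks, and Col24a1 was on the lower side (-0.46 and -0.26). With age, 3 of 11 were at least 2-fold lower at 10 weeks in Mkx-KO (median -0.37) and 1 of 11 in WT (median -0.21). Col11a2 differed by -1.28 in Mkx-KO and -1.02 in WT, though a second probe gave -0.34 in Mkx-KO and -0.61 in WT, short of 2-fold.

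Of 11 elastic fibre genes, 1 differed by 2-fold or more at 4 weeks, with Mkx-KO higher, and 0 did at 10 weeks. All 11 differences were positive at 4 weeks (median 0.41), where 58.8% of all genes were positive, though some, such as Eln, lay within the technical error. At 10 weeks 6 were positive and 5 negative (median 0.05). Eln, the elastin gene, differed between genotypes by -0.07 at 10 and 0.03 at 4 weeks, and between ages by -1.27 in Mkx-KO and -1.16 in WT. Fbn2, the fibrillin gene of young microfibrils, differed between genotypes by 0.13 and 1.27, and between ages by -2.82 in Mkx-KO and -1.67 in WT. At 10 weeks 5 of 11 were at least 2-fold lower than at 4 weeks in Mkx-KO and 2 of 11 in WT, Mfap2 (-1.59) and Mfap4 (-1.39) among those in Mkx-KO. In the basement membrane list, 2 of 5 measured genes were positive between genotypes at 10 weeks and 3 negative (median -0.03). At 4 weeks all 4 measured genes were positive (median 0.52). Col4a1 differed between genotypes by 0.55 and 0.74 and Col4a2 by 0.21 and 0.85. Their age differences were -1.36 and -1.67 in Mkx-KO, and -1.17 and -1.04 in WT.

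Partners in the endoplasmic reticulum had medians on the same side as the Plod genes. The list of lysyl hydroxylase partners and hydroxylysine glycosylation had medians of 0.11 and 0.25 for genotype, and -0.65 in Mkx-KO and -0.40 in WT for age, with 0 of 8 at least 2-fold apart in any comparison. Fkbp10, the chaperone that activates Plod2, differed between genotypes by 0.04 and 0.51, P3h4 by 0.14 and 0.48 and the collagen chaperone gene Serpinh1 by 0.27 and 0.27. Prolyl hydroxylation genes had medians of 0.14 and 0.37, with P4ha2 at 0.45 and 0.62, P3h1 at 0.34 and 0.31 and P4ha1 at 0.48 and 0.11. With age P3h1 differed by -1.18 in Mkx-KO and -1.21 in WT, and 2 of 7 genes in Mkx-KO and 1 of 7 in WT were at least 2-fold lower.

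Genes that activate, bind or load the oxidases with copper gave smaller or mixed differences. Bmp1, the protease that releases active Lox from its precursor, differed between genotypes by 0.08 and 0.40, and Furin by 0.19 and 0.61. Pcolce2, an enhancer of procollagen cleavage, differed by 0.15 and -1.20. Of the Lox-binding matrix genes, Efemp2 (fibulin-4, which brings Lox to elastin) differed by -0.03 and 0.26, Fmod by -0.19 and 0.43, Fn1 by -0.23 and 0.16 and Tnxb by 0.83 and -0.61. The 7 copper transport genes had medians of 0.12 and 0.08 for genotype and 0 members at least 2-fold apart in any comparison. Atp7a, the pump that supplies copper to secreted enzymes, differed by -0.22 and 0.15.

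Other cross-linking enzymes, and genes induced by hypoxia or TGF-beta, signals known to raise Lox expression, had small median differences between genotypes. Transglutaminase genes had medians of -0.02 and 0.05 for genotype, and 0.23 in Mkx-KO and 0.22 in WT for age. The epidermal members Tgm1 (-0.89 and 0.17) and Tgm5 (-0.98 and 0.63) had genotype differences of opposite sign at the ages, as did the stratified epithelium markers, with medians of -0.83 and 0.74. The 3 copper amine oxidase genes had medians of -0.15 and 0.04, with Aoc1 at -0.15 and 0.55. The 11 hypoxia-induced genes had medians of -0.13 and -0.09 for genotype, and 0.04 in Mkx-KO and 0.21 in WT for age, with Egln3 at -1.12 and -0.26 between genotypes. The 9 TGF-beta-related genes had medians of 0.03 and 0.15 for genotype, and 0.07 in Mkx-KO and 0.15 in WT for age. Ccn2, a matricellular protein gene, differed between genotypes by 0.63 and -0.74, and with age by 2.94 in Mkx-KO and 1.57 in WT.

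**Figure D4:**
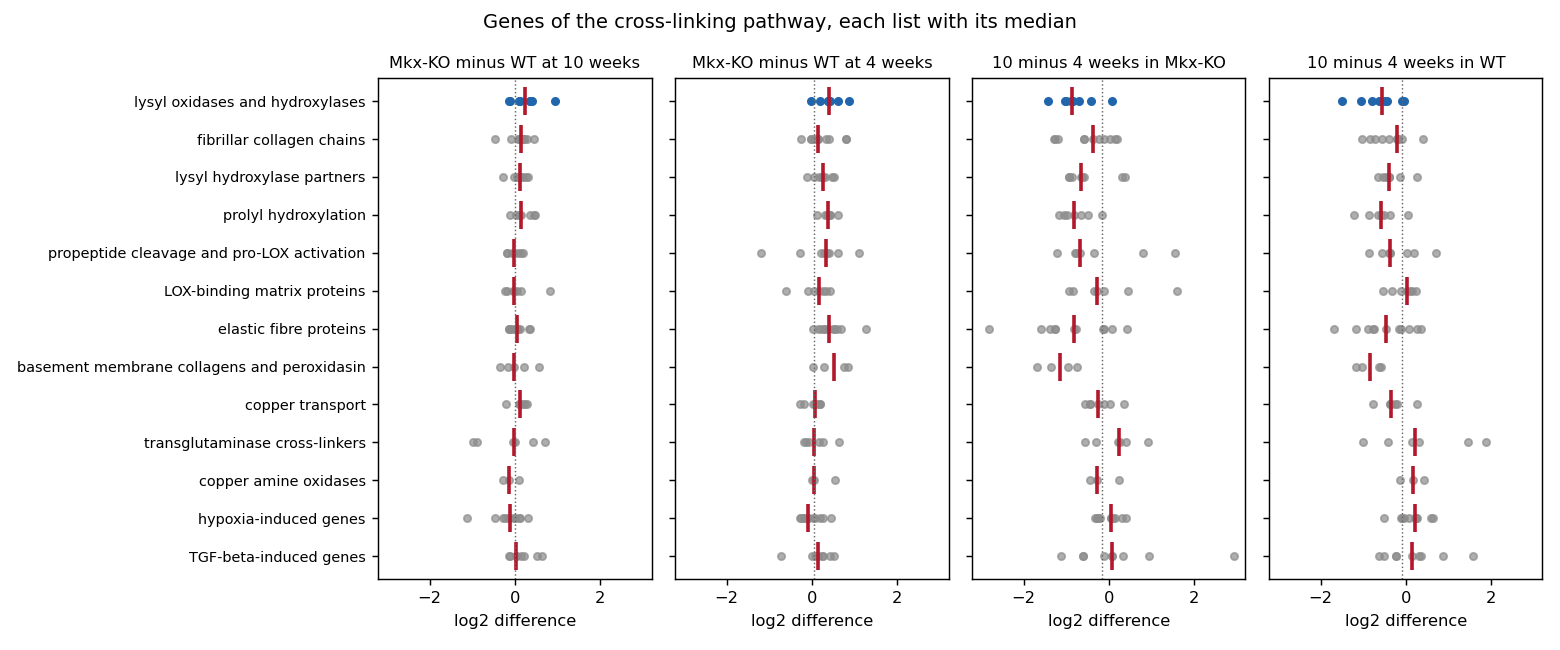
Log2 differences (horizontal axis) of the genes of each list (grey points) and of the 8 lysyl oxidases and hydroxylases (blue, top row) in the 4 comparisons. Red ticks are medians, and the dotted line is the median of all genes. In the age comparisons the medians of the blue row are -0.87 and -0.56, close to those of the prolyl hydroxylation list, -0.81 and -0.58.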

How the data were processed

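RNA was isolated with ISOGEN and 0.1 ug of it was labelled with Cy3, per the labels. Per the file headers, spot intensity was read with Agilent Feature Extraction 11.5.1.1, and the deposited processed signal is background-subtracted and detrended on each array, on a linear scale. The array design is annotated on mm9. The deposited series table holds intensity equal to the processed signal times 2.08 for Mkx-KO and 1.81 for WT at 10 weeks, and 1.54 for Mkx-KO and 1.64 for WT at 4 weeks; column medians were 87.0, 87.0, 56.8 and 62.2, genes were not centred, and how the factors were chosen is not given in the sources used here.

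Spots marked as outliers, 60 to 77 per array, were left out, spots of a probe were averaged, and the 75th percentile over probes was subtracted after log2. No spot was saturated. The scanner software called 65.3% of spots well above background in Mkx-KO and 66.6% in WT at 10 weeks, and 61.8% in Mkx-KO and 62.3% in WT at 4 weeks. RefSeq accessions named 32994 of 56605 probes (58.3%). A gene was measured in a comparison where its probe was well above background on both arrays, and called at 2-fold. limma 3.58.1 (R 4.3.3) fitted genes whose probe passed that criterion on 2 or more arrays; it was tested on simulated data. Members, lists and tests were chosen with earlier results of these data known. Named genes were the 8 members, Mkx, the 3 genes of each list with the largest mean genotype difference and the 2 with the largest mean age difference, 8 further collagen and cross-linking genes, and the 3 nearest profiles of members spanning at least 1 log2 unit; Postn was named to describe the tissue, and not every gene the rule picks is reported here. Alternatives were normexp on the median spot signal, quantile, median and deposited scaling, the mean over probes, other background filters, thresholds of 1.5-fold and 3-fold, and an intensity trend in limma.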

Additional observations from a re-analysis of the deposited data

Results flagged for a closer look

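For 3 of the 8 genes the genotype difference had opposite signs at the ages, with 1 array per group, so the change between ages was not tested. The genotype difference at 10 weeks minus that at 4 weeks was -0.53 for Loxl1 (technical error 0.29), from -0.11 at 10 and 0.42 at 4 weeks. It was -0.32 for Loxl3 (technical error 0.29) and 0.11 for Loxl2 (technical error 0.29). On the representative probes of Loxl2 and Loxl3, no single genotype difference exceeded its technical error. The second Loxl2 probe gave 0.21 at 10 and 0.25 at 4 weeks, both positive, the first barely above the technical error of 0.20. The opposite signs of Loxl2 thus rest on 1 of its 2 probes.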

How the results depend on the processing

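With 1 array a group, no replicate could be left out and there were no replicates to pair. Of 180 recomputed differences of the 8 genes, 145 moved by less than their technical error, 35 by more and 0 called ones changed sign. These counts do not measure how stable each gene is. The mean over probes cannot move a gene with 1 probe, and deposited or median scaling shifts all genes of a comparison alike. Lox stayed between 0.89 and 1.05 at 10 weeks and between 0.74 and 0.89 at 4 weeks for genotype, and between -1.46 and -1.12 in Mkx-KO and -1.52 and -1.14 in WT for age. Below 2-fold, some alternatives turned the sign of Loxl2 in 3 comparisons and of Loxl3 in 2. With a 1.5-fold threshold the members apart numbered 1 at 10 weeks and 2 at 4 weeks for genotype (0 and 0 at 2-fold), and 6 in Mkx-KO and 4 in WT for age (3 and 2 at 2-fold); at 3-fold the age counts were 0 and 0. The deposited scaling left 1 in Mkx-KO and 1 in WT, and normexp left 1 in WT. Over all genes the counts at 2-fold were 396 and 593 for genotype at 10 and 4 weeks, and 1580 in Mkx-KO and 1423 in WT for age. In the same order they were 150, 259, 815 and 705 with normexp, 1384, 2071, 3445 and 2919 without a filter on dim probes, 1468, 1546, 4298 and 3753 at 1.5-fold, and 86, 246, 569 and 491 at 3-fold. The causes were not tested, except that a lower threshold or no filter admits more genes. The limma fit called 0 genes for age but 31 with normexp, none of them among the 8, for which the adjusted p of Lox was the lowest and ran from 0.0628 to 0.229 over all fits.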
